A study of Homo sapiens with 9 samples.

Results

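The genes described here encode ribosome biogenesis factors, the proteins that make, modify, fold and process ribosomal RNA and assemble it with ribosomal proteins, and that do not stay in the finished ribosome. They were matched by gene symbol in the annotation of the array, using transcript clusters (called probes here) that carried 1 symbol only. Of 58 listed genes, 53 had such a probe, among 18404 genes measured in all. The other members have no value here: the probes of DDX47, PPAN and NOP56 carried several symbols, and no probe of the annotation carried the symbol GNL3 or DDX18. The 53 measured genes comprised 24 of the 25 listed small subunit factors, 12 of 15 large subunit factors, 2 of 3 box C/D proteins, all 4 H/ACA proteins, all 6 genes of the RNA polymerase I machinery (Pol I) and all 5 nucleolar proteins with several roles.

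The study asked what a splice variant of the receptor HER2, called Delta-HER2, does in mammary epithelial cells that full-length HER2 does not. RNA came from MCF10A, an immortalised, non-tumorigenic human mammary epithelial line, in 3 groups of 3 arrays: cells with the transgene control (named as parental in one label and as empty vector in another), cells expressing WT-HER2 and cells expressing Delta-HER2. All groups were grown in DMEM/F12 with 5% horse serum, EGF at 20 ng/ml, hydrocortisone, cholera toxin and insulin at 10 µg/ml, and were then kept for 16 h in DMEM/F12 with antibiotics as the only named supplement. The labels used here do not give the vector, its promoter, the number of clones behind a line or whether the arrays of a group came from separate cultures, so the p-values measure only the spread between these samples.

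Ribosome production begins in the nucleolus, where Pol I copies the ribosomal DNA into a long precursor RNA. Box C/D particles methylate that RNA and H/ACA particles turn chosen uridines into pseudouridine, while the small subunit processome and the large subunit assembly factors cut, fold and load the precursor with ribosomal proteins before the subunits are exported to the cytoplasm. Because growing cells spend much of their energy on this pathway, its genes are known to follow growth factor signalling and MYC in many cell types, epithelial cells included.

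The values are log2 expression levels normalised by the authors, and a difference of 1 is a 2-fold change. They are RNA levels, and where a protein or factor is said to rise or fall, the RNA of its gene is meant. Protein was not measured. Values of different genes come from different probes and were not set against each other. All 53 members had a group mean above 3.17, the level under which 95% of 340 olfactory receptor genes lay, which served as a gauge of background because epithelial cells are not known to use those genes. Within a group, the median SD of a member over its 3 arrays was 0.13. The largest SD, 0.61, was that of UTP15 in the WT-HER2 cells.

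In the Delta-HER2 cells, most ribosome biogenesis genes were expressed at a higher level than in control cells. Of the 53 members, 44 rose and 0 fell at an adjusted p below 0.05 in limma, a linear model with moderated errors, adjusted over all 18404 genes. Across all genes tested, 13.6% rose and 11.7% fell by the same rule (25.4% in either direction). Among the 13693 genes with a group mean above the background bound, 18.1% rose and 15.5% fell. The median difference of the members was 0.82 on the log2 scale, a 1.77-fold higher level, whereas the median over all genes tested was −0.01. The largest difference was 1.79 (NOLC1) and the lowest −0.10 (NOB1). At least 2-fold increases were called for 18 members, against 3.46% of all genes. The 9 members that did not pass were UTP14A, RIOK2, NOB1, NMD3, FBL, GAR1, RRN3, UBTF and NPM1. In RNA from whole cultures, more cells that express a gene and more RNA of it per cell cannot be told apart.

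In 47 of the 53 members, all 3 Delta-HER2 arrays lay above all 3 control arrays, an arrangement found in 19.2% of all genes. In 46 members they lay above all 6 other arrays, which held for 15.7% of all genes. The 3 Delta-HER2 arrays were alike: over the members, the median distance from the control mean was 0.93, 0.82 and 0.86 on the log2 scale. The same median was −0.09, 0.04 and 0.08 on the control arrays and −0.01, 0.02 and −0.22 on the WT-HER2 arrays.

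**Figure D1:**
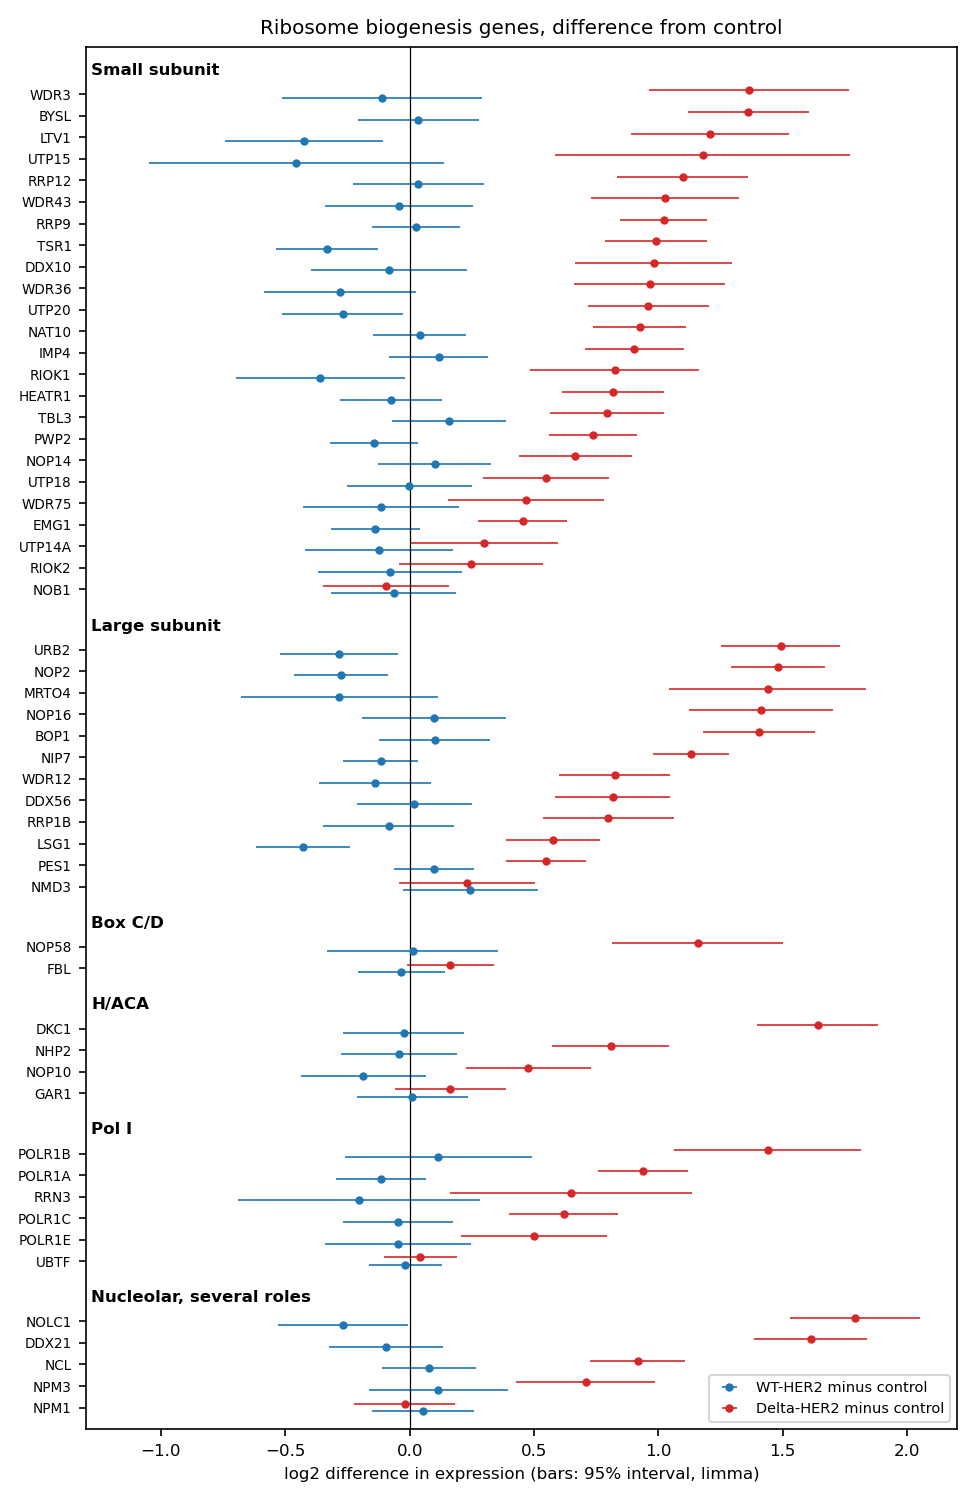
The log2 difference from control of each of the 53 measured ribosome biogenesis genes (vertical axis, by class) is plotted for WT-HER2 (blue) and Delta-HER2 (red), with the 95% interval of the limma fit. The Delta-HER2 differences run from −0.10 to 1.79 with a median of 0.82, and the WT-HER2 differences from −0.46 to 0.24 with a median of −0.06.

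The DNA around the start sites of the members, including those not called or without a value, was read for 5 short motifs. The RefSeq promoter table (GRCh38.p14) held windows from 250 bases before to 50 bases after a start site for 50 of the 58 members, 59 windows in all. The windows were searched on both strands for the E-box of MYC and related factors (CACGTG), an ETS-type motif (CCGGAAG), a core of the NRF1 motif (GCATGCG), the YY1 motif (AAGATGG) and the SP1 motif (GGGCGG). These 5 motifs do not contain one another, but matches can overlap. The windows printed here are those of RRP9, DKC1 and DDX21, which had large differences, and of FBL, which did not pass. They run from 250 bases before to 20 bases after the start, with any of the 5 motifs on either strand in capitals. Of NOP2, only the 30 bases around its E-box are shown, since that E-box lies after the start site. The genes shown had the smallest p of their class for Delta-HER2 against control in limma, among measured members with a window. No Pol I gene is shown. POLR1A, which had the smallest p of that class, has a window with none of the 5 motifs. The first window of DDX21, not shown, holds an ETS motif but no E-box. The positions are RRP9 at chr3:51941885-51942154 (minus strand), NOP2 at chr12:6568242-6568271 (minus strand), FBL at chr19:39846360-39846629 (minus strand), DKC1 at chrX:154762614-154762883 (plus strand) and the second of the windows of DDX21 at chr10:68956397-68956666 (plus strand).
RRP9: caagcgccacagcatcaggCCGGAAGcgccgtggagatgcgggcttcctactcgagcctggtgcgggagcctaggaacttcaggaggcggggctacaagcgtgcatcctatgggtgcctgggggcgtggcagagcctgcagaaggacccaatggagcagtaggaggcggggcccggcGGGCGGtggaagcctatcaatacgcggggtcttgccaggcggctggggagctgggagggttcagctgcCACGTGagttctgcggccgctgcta
NOP2: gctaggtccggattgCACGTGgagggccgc
FBL: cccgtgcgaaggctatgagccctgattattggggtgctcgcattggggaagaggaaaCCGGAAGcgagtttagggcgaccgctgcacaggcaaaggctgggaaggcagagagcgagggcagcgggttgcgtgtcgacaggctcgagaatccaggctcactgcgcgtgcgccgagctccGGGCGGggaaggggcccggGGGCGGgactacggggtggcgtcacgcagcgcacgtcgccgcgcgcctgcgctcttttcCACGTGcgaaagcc
DKC1: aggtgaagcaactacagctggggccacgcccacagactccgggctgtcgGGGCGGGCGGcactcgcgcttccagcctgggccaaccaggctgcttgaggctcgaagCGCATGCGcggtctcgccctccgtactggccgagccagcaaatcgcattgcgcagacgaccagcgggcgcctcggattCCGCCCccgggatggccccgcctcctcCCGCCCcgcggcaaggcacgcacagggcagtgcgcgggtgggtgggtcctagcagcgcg
DDX21: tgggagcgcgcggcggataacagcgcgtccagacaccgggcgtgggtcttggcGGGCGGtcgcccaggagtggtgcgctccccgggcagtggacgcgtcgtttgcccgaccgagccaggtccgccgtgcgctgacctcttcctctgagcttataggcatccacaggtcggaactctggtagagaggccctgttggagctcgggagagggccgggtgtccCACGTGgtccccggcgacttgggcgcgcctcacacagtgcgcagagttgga
The E-box of RRP9 begins 5 bases before the start site, and its ETS motif 231 bases before. That of DDX21 begins 31 bases before the start, and the E-box in the FBL window begins at base 7, counting the start site as base 1. The DKC1 window has no E-box but holds a core of the NRF1 motif 143 bases before the start.

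Over all member windows, the E-box was present in 32.2% (19 of 59) and the ETS motif in 40.7% (24 of 59). Over all 35116 windows in the table these shares were 7.26% and 10.3%. Over the 20098 windows of genes measured on the array they were 8.32% and 12.9%. The YY1 motif was in 13.6% of member windows against 6.07% of array gene windows, the NRF1 core in 6.78% against 4.58% and the SP1 motif in 67.8% against 57.3%. Counted by gene, over any of its windows, 38% of members with a window held an E-box, against 10.9% of array genes. For the ETS motif these shares were 44% and 16.8%. An E-box was present in 15 of the 37 members that rose with Delta-HER2 and had a window. It was also present in 3 of the 9 measured members that did not pass (UTP14A, FBL and GAR1). None of the 5 Pol I genes with a window held an E-box, and 3 of them held the ETS motif. A match describes letters in a window, and binding was not measured here. The part of these motifs in the differences was not tested.

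The Pol I genes come first in the pathway. The subunits POLR1A, POLR1B, POLR1C and POLR1E all rose with Delta-HER2, with differences from 0.50 to 1.44, while the transcription factors RRN3 and UBTF did not pass. The median over all 6 was 0.63.

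POLR1A (probe 8053496), the largest catalytic subunit of the polymerase, measured 6.47, 6.59 and 6.66 on the control arrays, 6.55, 6.47 and 6.35 on the WT-HER2 arrays and 7.46, 7.50 and 7.58 on the Delta-HER2 arrays. The Delta-HER2 arrays lay above the other 6, which overlapped each other, and the difference from control was 0.94 (SE 0.08, limma adjusted p 2.36e-05), a 1.92-fold higher level. POLR1B (probe 8044473), the other catalytic subunit, read 5.96, 6.39 and 6.44 in control, 6.55, 6.55 and 6.03 with WT-HER2 and 7.81, 7.67 and 7.63 with Delta-HER2. It had the largest difference of the class, 1.44 (SE 0.17, 2.71-fold, limma adjusted p 0.000162), although its control and WT-HER2 arrays were more spread than those of POLR1A. POLR1C, a subunit that Pol I shares with RNA polymerase III, was 6.44, 6.71 and 6.82 in control, 6.58, 6.69 and 6.57 with WT-HER2 and 7.33, 7.25 and 7.25 with Delta-HER2, a difference of 0.62 (SE 0.10, limma adjusted p 0.00116). POLR1E, a subunit particular to Pol I, rose by 0.50 (limma adjusted p 0.0188).

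RRN3, also known as TIF-IA, links Pol I to its promoter in response to growth signals. Its arrays read 6.59, 6.38 and 6.74 in control, 6.52, 6.73 and 5.85 with WT-HER2 and 7.42, 6.96 and 7.28 with Delta-HER2. All Delta-HER2 arrays were the highest, yet the difference of 0.65 had an SE of 0.22 and an adjusted p of 0.0555 in limma, just outside the threshold. UBTF, the upstream binding factor that keeps ribosomal DNA open, had nearly the same value everywhere: 8.10, 8.16 and 8.16 in control, 8.16, 8.05 and 8.16 with WT-HER2 and 8.16, 8.17 and 8.23 with Delta-HER2. Its difference with Delta-HER2 was 0.04, with a 95% interval from −0.10 to 0.19. The same deposited value, 8.1647, recurred on UBTF arrays of all 3 groups, and the origin of these ties was not tested.

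Among the proteins that modify ribosomal RNA, both kinds of particle held one core protein with a clear rise and another without a call. In the box C/D particle, NOP58, a scaffold of the particle (probe 8047518), was 7.69, 8.02 and 7.90 in control, 8.07, 8.02 and 7.56 with WT-HER2 and 9.19, 8.83 and 9.07 with Delta-HER2. The difference was 1.16 (SE 0.15, 2.23-fold, limma adjusted p 0.000373) and the Delta-HER2 arrays stood apart from the rest. FBL, fibrillarin, the methyltransferase of the same particle, measured 8.94, 9.03 and 8.95 in control, 8.88, 9.06 and 8.88 with WT-HER2 and 9.05, 9.22 and 9.15 with Delta-HER2. The lowest Delta-HER2 array was only just above the highest control array, and the difference of 0.16 did not pass (95% interval −0.01 to 0.34, limma adjusted p 0.181).

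Of the genes of the 4 H/ACA proteins, 3 rose. DKC1, dyskerin, the pseudouridine synthase (probe 8170971), read 6.28, 6.06 and 6.31 in control, 6.38, 6.20 and 6.0 with WT-HER2 and 7.86, 7.80 and 7.91 with Delta-HER2. Its difference of 1.64 (SE 0.11, 3.12-fold, limma adjusted p 5.06e-06) was the largest among the modification proteins, and every Delta-HER2 array was well clear of the other 6. NHP2, a core protein of the particle, was 6.71, 6.84 and 6.84 in control, 6.94, 6.73 and 6.58 with WT-HER2 and 7.56, 7.74 and 7.50 with Delta-HER2, a difference of 0.81 (SE 0.10, limma adjusted p 0.000314). A second probe of NHP2 differed by 0.56, and since the chosen probe may read a pseudogene copy, the size of the difference is uncertain. NOP10, the smallest of the core proteins, was 7.19, 7.41 and 7.41 in control, 7.20, 7.27 and 6.99 with WT-HER2 and 7.81, 7.98 and 7.66 with Delta-HER2, a difference of 0.48 (SE 0.11, limma adjusted p 0.0108). GAR1, the remaining core protein, was 6.01, 5.93 and 5.85 in control, 5.93, 5.81 and 6.08 with WT-HER2 and 6.12, 5.94 and 6.22 with Delta-HER2. These groups overlapped, and the difference of 0.16 (95% interval −0.06 to 0.39) did not pass.

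**Figure D2:**
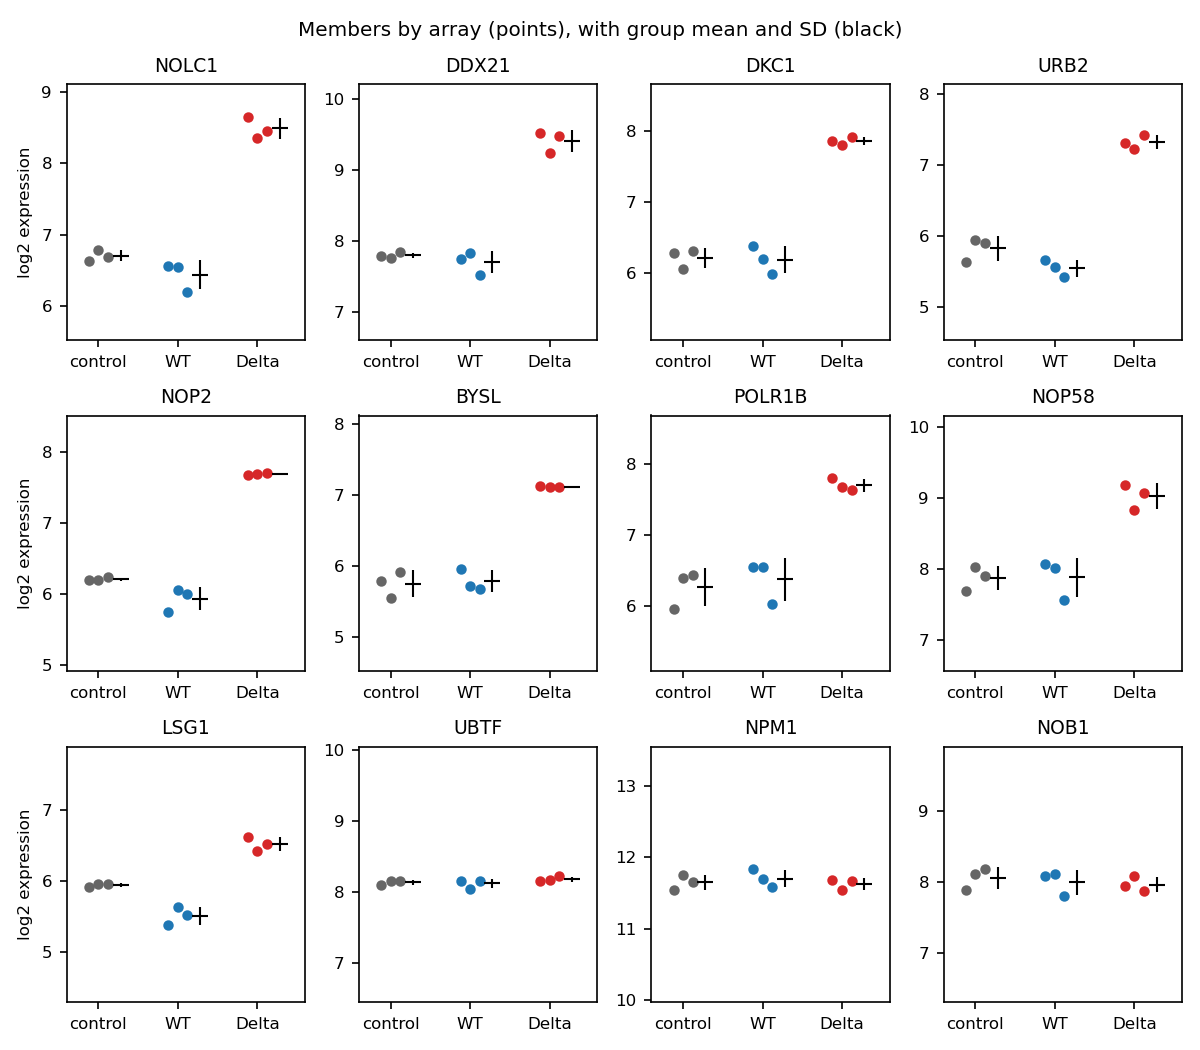
The log2 expression value of selected members (vertical axis) is plotted for every array of the control, WT-HER2 and Delta-HER2 groups as points, with the group mean and SD in black; each panel is centred on its own gene and all span the same range. The Delta-HER2 points of NOLC1 and DKC1 sit above all others, those of NPM1 lie among them and those of UBTF lie at 8.16 to 8.23, at or just above the highest of the others (8.16).

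Of the 24 small subunit factors, 21 rose with Delta-HER2, with a median difference of 0.91 over the class. BYSL (probe 8119492), bystin, which acts late in the maturation of the small subunit precursor, was 5.79, 5.55 and 5.92 in control, 5.96, 5.72 and 5.68 with WT-HER2 and 7.13, 7.11 and 7.11 with Delta-HER2. The Delta-HER2 arrays were nearly identical and far above the rest, with a difference of 1.36 (SE 0.11, 2.57-fold, limma adjusted p 1.46e-05). RRP9 (probe 8087790), a protein of the snoRNA particle that guides the first cuts of the precursor, was 4.59, 4.77 and 4.85 in control, 4.74, 4.80 and 4.74 with WT-HER2 and 5.73, 5.78 and 5.76 with Delta-HER2. Its difference of 1.02 (SE 0.08, limma adjusted p 1.11e-05) had the smallest p of the class.

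NAT10, the enzyme that acetylates cytidines in small subunit RNA, was 6.60, 6.81 and 6.80 in control, 6.77, 6.88 and 6.68 with WT-HER2 and 7.67, 7.63 and 7.69 with Delta-HER2, a difference of 0.93 (SE 0.08, limma adjusted p 3.09e-05). TSR1, a GTPase-like factor of the late small subunit precursor, was 6.33, 6.36 and 6.26 in control, 6.11, 6.06 and 5.79 with WT-HER2 and 7.37, 7.25 and 7.30 with Delta-HER2, a difference of 0.99 (SE 0.09, limma adjusted p 3.68e-05). LTV1, which is released from the same precursor in the cytoplasm, was 5.98, 6.40 and 6.40 in control, 5.90, 5.91 and 5.68 with WT-HER2 and 7.70, 7.34 and 7.36 with Delta-HER2, a difference of 1.21 (SE 0.14, limma adjusted p 0.000171). For TSR1 and LTV1 all 3 groups were separate, with the WT-HER2 arrays lowest and the Delta-HER2 arrays highest.

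NOB1, the endonuclease that makes the last cut of the small subunit RNA, had no called difference with Delta-HER2. Its arrays read 7.89, 8.12 and 8.18 in control, 8.09, 8.11 and 7.80 with WT-HER2 and 7.95, 8.08 and 7.87 with Delta-HER2. The groups overlapped, and the difference of −0.10 had a 95% interval from −0.35 to 0.16. UTP14A (difference 0.30, limma adjusted p 0.147) and the late acting kinase RIOK2 (0.25, limma adjusted p 0.229) did not pass either. The 16 other small subunit factors rose by 0.45 to 1.36, with adjusted p-values up to 0.0350 in limma.

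By complex, the 4 measured genes of UTP-A, which joins the precursor while it is being transcribed (HEATR1, UTP15, WDR43 and WDR75), all rose, with differences from 0.47 to 1.18. So did the 5 measured genes of UTP-B, another early complex (PWP2, TBL3, UTP18, WDR3 and WDR36), with differences from 0.55 to 1.36. Of 7 factors that act late on the small subunit (BYSL, LTV1, TSR1, NOB1, RIOK1, RIOK2 and RRP12), 5 rose. These complexes were set out with the results known, and their counts are descriptive.

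Of the 12 large subunit factors, 11 rose, with a median difference of 0.98. NOP2, a methyltransferase of large subunit RNA (probe 7960575), was 6.20, 6.20 and 6.23 in control, 5.75, 6.05 and 6.0 with WT-HER2 and 7.67, 7.69 and 7.71 with Delta-HER2. Its difference of 1.48 (SE 0.08, 2.79-fold) had the smallest adjusted p of all members, 2.24e-06 in limma. URB2, a factor of early large subunit precursors (probe 7910416), had the largest difference of the class, 1.49 (SE 0.11, 2.81-fold, limma adjusted p 7.44e-06), from 5.63, 5.95 and 5.91 in control and 5.66, 5.56 and 5.42 with WT-HER2 to 7.32, 7.22 and 7.43 with Delta-HER2. In both genes the Delta-HER2 arrays lay more than a full log2 unit above every other array.

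BOP1, which forms the PeBoW complex with PES1 and WDR12 and is needed to process the large subunit RNAs (probe 8153678), was 6.31, 6.26 and 6.34 in control, 6.41, 6.29 and 6.52 with WT-HER2 and 7.69, 7.54 and 7.90 with Delta-HER2. The difference was 1.40 (SE 0.10, 2.65-fold, limma adjusted p 7.44e-06), and a second probe of BOP1 differed by 1.04. The other PeBoW members rose as well, WDR12 by 0.82 and PES1 by 0.55. NIP7, a small factor of large subunit assembly, was 6.93, 6.91 and 6.87 in control, 6.78, 6.84 and 6.74 with WT-HER2 and 7.97, 8.02 and 8.11 with Delta-HER2, a difference of 1.13 (SE 0.07, limma adjusted p 2.76e-06). The 6 large subunit factors not described singly, among them NOP16 (1.41) and MRTO4 (1.44), rose by 0.55 to 1.44.

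The last steps of large subunit maturation are represented by NMD3, the adaptor for nuclear export, and LSG1, the cytoplasmic GTPase that releases NMD3. NMD3 was 8.11, 8.47 and 8.43 in control, 8.76, 8.56 and 8.42 with WT-HER2 and 8.65, 8.45 and 8.60 with Delta-HER2. The groups overlapped, and its difference with Delta-HER2 of 0.23 (95% interval −0.04 to 0.50) did not pass. LSG1 (probe 8092905) was 5.92, 5.96 and 5.96 in control, 5.38, 5.64 and 5.53 with WT-HER2 and 6.62, 6.43 and 6.52 with Delta-HER2, so the 3 groups did not overlap. It rose with Delta-HER2 by 0.58 (SE 0.08, 1.49-fold, limma adjusted p 0.000667).

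The nucleolar proteins with several roles included the member with the largest difference and one of the smallest. NOLC1 (probe 7930008), a chaperone of snoRNA particles that links the nucleolus with Cajal bodies, was 6.63, 6.79 and 6.69 in control, 6.56, 6.54 and 6.20 with WT-HER2 and 8.66, 8.36 and 8.46 with Delta-HER2. The difference was 1.79 (SE 0.12, 3.46-fold, limma adjusted p 4.42e-06). DDX21, an RNA helicase of the nucleolus that acts on ribosomal RNA and snoRNAs (probe 7927936), was 7.78, 7.76 and 7.84 in control, 7.74, 7.83 and 7.53 with WT-HER2 and 9.51, 9.23 and 9.47 with Delta-HER2, a difference of 1.61 (SE 0.10, 3.06-fold, limma adjusted p 3.84e-06). In both genes the Delta-HER2 arrays were far from the other 6.

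NCL, nucleolin, was 9.19, 9.37 and 9.33 in control, 9.39, 9.43 and 9.29 with WT-HER2 and 10.23, 10.09 and 10.31 with Delta-HER2, a difference of 0.92 (SE 0.08, limma adjusted p 3.79e-05), and NPM3, a paralog of nucleophosmin, rose by 0.71. NPM1, nucleophosmin itself, was 11.54, 11.75 and 11.66 in control, 11.83, 11.70 and 11.58 with WT-HER2 and 11.68, 11.54 and 11.67 with Delta-HER2. The groups overlapped, and the difference of −0.02 had a 95% interval from −0.22 to 0.18. NPM1 has many processed pseudogenes, so its probe is uncertain. A second probe at a like level differed by −0.09.

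**Figure D3:**
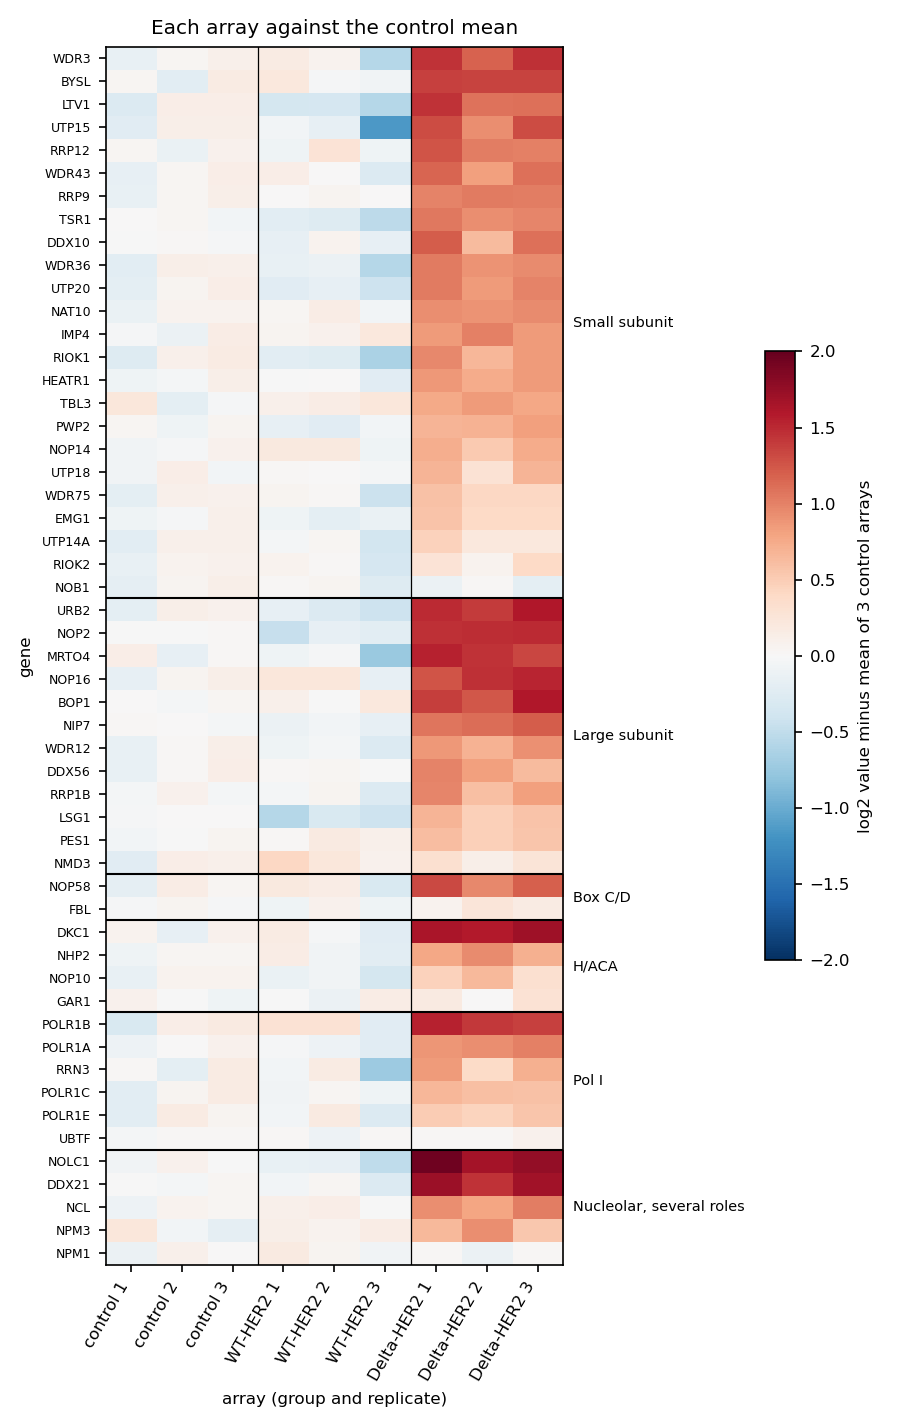
Each row is a member and each column an array (3 control, 3 WT-HER2, 3 Delta-HER2), and the colour is the log2 value minus the mean of the 3 control arrays. The Delta-HER2 columns have medians of 0.93, 0.82 and 0.86 over the members, and the other columns between −0.22 and 0.08.

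WT-HER2 was compared with control to see what the full-length receptor did to the same genes. With it, 0 members rose and 1 fell in limma at the same threshold, against 0.777% of all genes that rose and 0.902% that fell (1.68% in either direction). At an unadjusted p below 0.05, 8 of the 53 members differed, against 11.2% of all genes. The differences lay between −0.46 and 0.24, with a median of −0.06 (0.01 over all genes), and 35 of the 53 were below 0, against 47.1% of all genes. The upper 95% limit of the difference was under 0.5 for 52 members, the exception being NMD3 with 0.52. For each of the 44 members that rose with Delta-HER2, the upper limit with WT-HER2 was below the estimate with Delta-HER2. Those members were picked by that estimate and its error was left out, so no conclusion is drawn from this.

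The member that fell was LSG1, by 0.43 (SE 0.08, 95% interval −0.62 to −0.24, limma adjusted p 0.0377). This call was lost when any 1 of the 9 arrays was left out, with adjusted p-values in limma from 0.0508 to 0.153. Of the members with the next smallest p-values, TSR1 differed by −0.33 (limma adjusted p 0.145), NOP2 by −0.28 (0.207) and LTV1 by −0.43 (0.260). In 0 members did all WT-HER2 arrays lie above all control arrays, and in 7 they lay below (TSR1, LTV1, EMG1, NOP2, NIP7, LSG1 and NOLC1). Such a separation was found in 6.40% of all genes upward and in 7.63% downward. WT-HER2 replicate 3 was low in its group: 44 of the 53 members lay below the mean of the other WT-HER2 arrays, with a median distance of −0.23. Control replicate 1 (41 of 53, median −0.14) and Delta-HER2 replicate 2 (41 of 53, median −0.10) were low in their groups in the same way. Without control replicate 1 and WT-HER2 replicate 3 together, 45 members rose with Delta-HER2 and 0 fell with WT-HER2.

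Delta-HER2 was also compared directly with WT-HER2. Of the members, 46 were higher and 0 lower in limma, against 13.4% and 9.35% of all genes (22.8% in either direction), with a median difference of 0.89. The increase was at least 2-fold for 24 of them, against 3.27% of all genes, and in 46 members the groups did not overlap, an arrangement of 18.3% of all genes. This comparison shares the Delta-HER2 arrays with the comparison against control. By class, 22 of 24 small subunit factors were higher (median 0.94), 11 of 12 large subunit factors (1.13), 1 of 2 box C/D proteins, 3 of 4 H/ACA proteins (0.76), 5 of 6 Pol I genes (0.76) and 4 of 5 nucleolar proteins (0.84). All 44 members called against control were called here too, and UTP14A (adjusted p 0.0474) and RRN3 (difference 0.85, adjusted p 0.0182) passed in limma only against WT-HER2. The largest difference was again that of NOLC1, 2.06 (adjusted p 2.75e-06 in limma), followed by URB2 with 1.78 and NOP2 with 1.76. In 34 members the WT-HER2 mean was the lowest of the 3 groups, and in 16 it lay between the other means. This order of WT-HER2 and control depends on single arrays. When 1 array was left out, the median difference of the members between WT-HER2 and control ran from −0.11 to 0.02.

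A broader list of 131 other ribosome biogenesis genes had values for 126. With Delta-HER2, 71 of these rose and 3 fell in limma, against 13.6% and 11.7% of all genes, and the median difference was 0.46. With WT-HER2, 0 rose and 0 fell in limma, against 0.777% and 0.902% of all genes, and the median was −0.07. At an unadjusted p below 0.05, 17 of the 126 differed, against 11.2% of all genes. Against WT-HER2, 87 were higher and 3 lower with Delta-HER2 (RIOK3, POLR1D and NOP53), against 13.4% and 9.35% of all genes.

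The genes named by role are those with the smallest p, which are not always those with the largest difference. Of 41 further small subunit genes 21 rose, among them NOL6 (1.34) and UTP4 (1.28), both parts of the processome. Of 45 further large subunit genes 29 rose, among them NOC2L (1.03) and LAS1L (0.99), which cuts the spacer between the large subunit RNAs. Of 8 genes of the box C/D particle and its assembly, 4 rose: the paired helicases RUVBL1 (1.48) and RUVBL2 (1.04) and the assembly factors NUFIP1 (0.78) and PIH1D1 (0.74). Of 3 genes tied to the H/ACA particle and its assembly, TCOF1, treacle, rose by 1.56 and the H/ACA assembly factor SHQ1 by 0.49. Of 15 further Pol I genes 7 rose, among them POLR2H (1.00), a subunit common to the nuclear polymerases, and POLR1G (0.84). Of 14 genes in a list of exosome genes that also held XRN2 and GTF3A, 8 rose, among them the exosome subunits EXOSC2 (1.38) and EXOSC9 (0.93).

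The 3 genes that fell were RIOK3, a kinase of late small subunit precursors, NOP53, a large subunit factor, and POLR1D, a subunit shared by Pol I and RNA polymerase III. RIOK3 was 8.58, 8.82 and 8.83 in control and 7.87, 7.70 and 7.87 with Delta-HER2, a difference of −0.93 (limma adjusted p 0.000289). POLR1D was 8.27, 8.41 and 8.41 in control and 7.72, 7.70 and 7.61 with Delta-HER2, a difference of −0.69 (limma adjusted p 0.000184), and NOP53 fell by 0.48 (limma adjusted p 0.00745). In all 3 genes the Delta-HER2 arrays lay below all control arrays. POLR1C, the partner of POLR1D in both polymerases, rose by 0.62.

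The genes of the structural proteins of the cytosolic ribosome did not follow those of the biogenesis factors. Of 57 measured ribosomal protein genes, 1 rose with Delta-HER2 (RPS24, 0.43) and 17 fell in limma, against 13.6% and 11.7% of all genes, with a median difference of −0.18. The genes that fell included RPLP1 (−0.56), RPS21 (−0.56) and RPS19 (−0.50), and the largest decrease was that of RPL26 (−0.74). With WT-HER2, 0 of them rose or fell in limma, against 0.777% and 0.902% of all genes, and the median was −0.06. Between Delta-HER2 and WT-HER2, 2 were higher (RPS24, 0.51, and RPL41, 0.47) and 6 lower with Delta-HER2, against 13.4% and 9.35% of all genes. Ribosomal protein genes have many processed pseudogenes, and their probes may be shared with these copies.

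**Figure D4:**
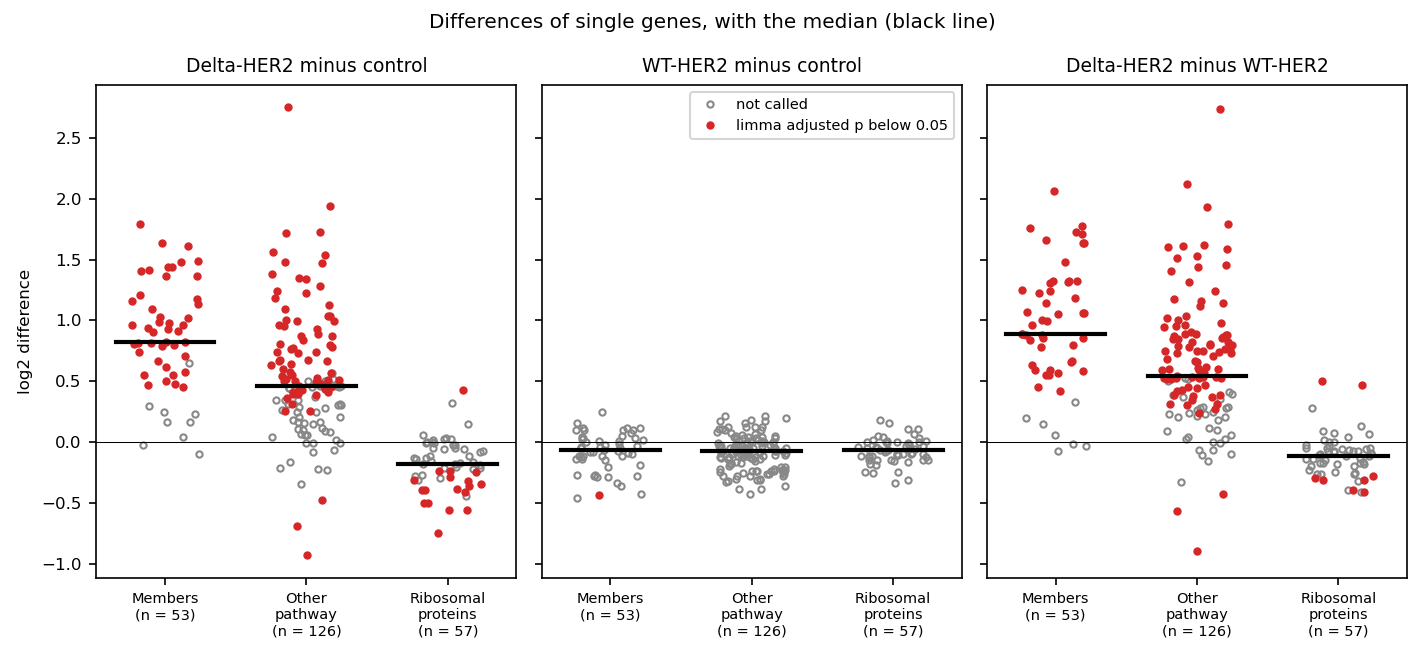
Each point is a gene and the vertical axis its log2 difference, for the 53 ribosome biogenesis genes, 126 other genes of the pathway and 57 ribosomal protein genes, in the 3 comparisons; filled points passed an adjusted p below 0.05 in limma and the line is the median. With Delta-HER2 against control the medians were 0.82, 0.46 and −0.18, and with WT-HER2 against control they were −0.06, −0.07 and −0.06.

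Other measurements also differed between the groups, not always in step with the members. All 12 genes of a proliferation list rose with Delta-HER2 in limma, against 13.6% of all genes, by 1.12 to 2.86 with a median of 1.99. With WT-HER2 1 of them rose (MCM5, 0.42, limma adjusted p 0.0253), against 0.777% of all genes, with a median of 0.23. The part of proliferation in the differences of the ribosome biogenesis genes was not tested. ERBB2, which encodes HER2, was 6.97, 6.91 and 7.10 in control, 7.98 on each WT-HER2 array and 8.93, 8.96 and 8.97 with Delta-HER2. The 3 WT-HER2 values were the same deposited number, 7.9782. Such ties were found for 465 of 32321 probes in that group, and their origin was not tested. ERBB2 was higher with Delta-HER2 than with WT-HER2. The part of this level in the difference between the lines was not tested. Array medians were 4.04 to 4.18. Of 9 epithelial markers 6 were measured, with a median level over the list of 9.52 to 9.99 on every array. With Delta-HER2, LAMB3 among them rose by 0.45 and CDH1 fell by 1.03 in limma. With WT-HER2, LAMB3 rose by 0.38, and KRT14 (−0.68) and CDH1 (−0.33) fell. Markers of other cell types had median levels of 3.49 to 3.83 (6 fibroblast genes), 2.70 to 3.08 (5 blood cell genes) and 2.62 to 2.99 (4 endothelial genes). The group means of LUM, PTPRC, CD3E, LYZ, VWF, CDH5 and KDR were under the background bound in every group. The list medians hide genes that were well above the bound in every group. These were COL1A1 (group means 5.5 to 5.9), DCN (7.1 to 7.7), CD68 (6.1 to 6.9) and CD14 (8.0 to 8.3). Of these 15 genes of other cell types, CD68 (0.58) and PECAM1 (0.90) rose and COL1A1 (−0.44) and KDR (−0.36) fell with Delta-HER2 in limma. Over all genes, 13.6% rose and 11.7% fell. With WT-HER2, CD68 (0.76) and DCN (0.58) rose in limma, against 0.777% of all genes. KDR was not above background in any group and PECAM1 was above it with Delta-HER2 only, so the sizes of the differences of KDR and PECAM1 are uncertain. The part of these marker genes in the members' differences was not tested.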

How the data were processed

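RNA of 9 MCF10A samples was measured on Affymetrix whole-transcript arrays. The authors deposited log2 values, made by RMA (affy package, R 2.14), per the submitters' processing notes. RMA corrects background, normalizes by quantiles and summarises each probe set, which compresses differences of dim or saturated probes. No genome build is given in the sources used here. The values were used as deposited, with no filter on low values.

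Of 32321 probes, 19158 had 1 gene symbol in the annotation of the array, 1388 had several and 11775 were not listed. Symbols were updated through Entrez numbers in the RefSeq gene table (19128 matched). The probe with the highest mean over the 9 arrays stood for its gene (637 genes had several probes), which gave 18404 genes.

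A linear model with a mean for each group was fitted to all 9 arrays in limma 3.58.1 (R 4.3.3), which left 6 residual degrees of freedom. P-values are two-sided and adjusted by the Benjamini-Hochberg method over all genes of a contrast. The median SE of a difference was 0.10, which sets the precision with 3 arrays a group. The script was tested on simulated data.

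The members and the gene lists were chosen with earlier results of these data known. The genes named were, in each class, the 4 members (3 in classes under 7) with the smallest p for Delta-HER2 against control and the 1 with the largest, the 4 with the smallest p for WT-HER2 against control, in each class of other pathway genes the 2 with the smallest p, and those called lower. Small counts were named in full where their genes bear on the text. The complexes, the members grouped by them, RRN3, UTP14A, RIOK2, POLR1E, WDR12, PES1, NOP16, MRTO4, NPM3, NUFIP1, PIH1D1 and the ribosomal protein genes were chosen for mention with their values in view. Promoter sequences are RefSeq's, from its GRCh38.p14 table. The alternatives were another normalization, the choice of probe, a filter on dim genes, other settings of the model, the replicate number as a block and leaving out arrays.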

Additional observations from a re-analysis of the deposited data

Results flagged for a closer look

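LSG1 moved in opposite directions under the HER2 forms. It was lower than control with WT-HER2 (−0.43, limma adjusted p 0.0377) and higher with Delta-HER2 (0.58, limma adjusted p 0.000667), and the difference between them was 1.01 on the log2 scale (limma adjusted p 2.57e-05), with no overlap between the 3 groups of 3 arrays. The call of the decrease with WT-HER2 was lost when any 1 array was left out.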

How the results depend on the processing

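Members higher with Delta-HER2 than control numbered 41 to 45 over all alternatives and higher than WT-HER2 42 to 48, with 0 lower in either. The median against control was 0.80 to 0.90. Against WT-HER2 it was 0.84 to 1.01 over all alternatives. When 1 array was left out it was 0.89 to 1.01, with 1.01 without WT-HER2 replicate 2. With WT-HER2 against control, 0 members rose under all 19 alternatives. The median of that comparison was −0.11 to 0.02, so its sign was not stable. The 1 member that fell became 0 with median centring, with only the 2 groups compared, at adjusted p below 0.01, without control replicate 1 and WT-HER2 replicate 3 together and when 1 array was left out (0 to 0), and 2 with array weights, which added LTV1 (−0.47, limma adjusted p 0.0484). For LSG1 the adjusted p in limma ran from 0.0144 with array weights to 0.158 with the block. The replicate numbers do not pair the samples by design, and only 1 of 9 arrays correlated best with its own number. With the replicate number as a block, 43 members rose against control, 45 against WT-HER2, and 0 fell with WT-HER2. The NPM1 difference with Delta-HER2, which did not pass, turned to 9e-04 with quantile normalization and 0.021 with median centring, and ranged from −0.077 to 0.031 when 1 array was left out, above 0 without control replicate 2 and without Delta-HER2 replicate 2 (0.026). Of 608 values of named members under alternatives, 588 kept direction and call, 15 lost the call, 1 gained it and 4 reversed; the causes were not tested. With 3 arrays a group and a median SE of 0.10, differences under about 0.5 often cannot pass, and signals near the background bound understate differences.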

Other observations

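Within the wider pathway, the largest difference with Delta-HER2 was that of LYAR, a nucleolar growth regulator, picked after its value was seen. Its arrays were 4.18, 4.51 and 4.82 in control, 4.88, 4.54 and 4.13 with WT-HER2 and 7.43, 6.94 and 7.39 with Delta-HER2, a difference of 2.75 (6.74-fold, limma adjusted p 1.59e-05). RRS1, a large subunit factor that works with the 5S particle, rose by 1.94.

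Among the variant ribosomal proteins, RPL22L1, a paralog of RPL22, was 5.02, 5.63 and 5.61 in control and 6.72, 6.53 and 6.56 with Delta-HER2, a difference of 1.18 (limma adjusted p 0.00166). RPS27L, a paralog of RPS27 known as a target of p53, was 6.81, 7.21 and 7.20 in control and 6.39, 6.04 and 6.21 with Delta-HER2, a difference of −0.86 (limma adjusted p 0.00144). Both groups of arrays were separate in both genes, and both genes were picked after their values were seen.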
